A study of Mus musculus with 10 samples.

Results

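The 10 genes described here mark the cells of brain blood vessels, and all 10 were found by symbol among the 24982 rows of a gene count table of mouse dentate gyrus. The rows are spelled CLDN5, CDH5, PECAM1, FLT1, KDR, TEK, SLCO1A4, PDGFRB, RGS5 and VTN. Of these, 7 mark endothelial cells (Cldn5, Cdh5, Pecam1, Flt1, Kdr, Tek and Slco1a4) and 3 mark mural cells, the pericytes and smooth muscle cells around the vessel (Pdgfrb, Rgs5 and Vtn). The mice were 5 males with a global knockout of Fndc5 (KO) and 5 wild-type males (WT), all on the C57BL/6 background and 10 weeks old. Fndc5 encodes the membrane protein from which the secreted muscle factor irisin is cleaved. The dentate gyrus, a hippocampal subfield of granule neurons, was micro-dissected from each mouse, and each mouse gave 1 library. The knockout is called global in the labels, and how the allele was made was not stated in them.

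Brain endothelial cells form the blood-brain barrier. They seal the vessel with tight junctions, carry nutrients and drugs across it with transporters, and depend on VEGF and angiopoietin signals for growth and stability. Pericytes are recruited by endothelial PDGF-B acting on their receptor PDGFRB, and share a basement membrane with the endothelium. Both cell types are a small part of the dissected tissue. In bulk RNA, fewer cells of a type and less RNA per cell cannot be told apart.

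Library totals ranged from 26226375 to 43802079 counts, and the 10 genes were read deeply enough to be compared, with between 295 counts (Tek) and 3463 counts (Rgs5) in a library. Fndc5 itself was at 51.3 ± 4.27 CPM (counts scaled to library size) in KO and 75.3 ± 4.598 CPM in WT mice (SD, n = 5 each, edgeR adjusted p 0.000495), with no overlap between genotypes. It was the only 1 of 14867 genes tested, or 0.00673%, that passed an adjusted p of 0.05 in edgeR's quasi-likelihood test. All 10 vascular genes passed the low-count filter. KO mouse 3 and WT mouse 1 had the lowest summed endothelial level of their genotypes, and the fold changes of the 10 genes, and the correlations among them, were also computed without them. They also had the lowest summed levels of astrocyte, microglia, oligodendrocyte and meningeal fibroblast markers in their genotypes, and the part of those cells in the results was not tested.

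The 5′ flanks of 4 of the genes are shown first, those of Cldn5, the transporter Slco1a4 and 2 of the mural genes. These 4 were printed because they held no annotated exon and lay outside the annotated gene. They are RefSeq promoter sequences (GRCm38.p6) that end before the first annotated base of the gene, written 5′ to 3′ on the gene's strand, with capitals marking matches to 4 short motifs searched on both strands. The motifs were an ETS core with flanks (AGGAAG, in 29.5% of 32851 promoter windows of 250 bases), a SOX core (AACAAT, in 9.42%), a GATA core (AGATAA, in 9.99%) and a TATA box (TATAAA, in 12.4%).
Cldn5 chr16:18776597-18776846 (+): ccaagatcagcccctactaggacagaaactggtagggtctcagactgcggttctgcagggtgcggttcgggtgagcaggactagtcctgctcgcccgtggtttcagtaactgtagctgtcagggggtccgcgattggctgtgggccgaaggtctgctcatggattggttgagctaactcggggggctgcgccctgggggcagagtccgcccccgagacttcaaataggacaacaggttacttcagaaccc
Slco1a4 chr6:141856285-141856470 (-): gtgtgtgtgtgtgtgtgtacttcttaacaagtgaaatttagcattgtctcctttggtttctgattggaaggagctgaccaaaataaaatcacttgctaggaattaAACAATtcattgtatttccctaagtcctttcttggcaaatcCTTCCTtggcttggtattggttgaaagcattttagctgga
Rgs5 chr1:169655251-169655500 (+): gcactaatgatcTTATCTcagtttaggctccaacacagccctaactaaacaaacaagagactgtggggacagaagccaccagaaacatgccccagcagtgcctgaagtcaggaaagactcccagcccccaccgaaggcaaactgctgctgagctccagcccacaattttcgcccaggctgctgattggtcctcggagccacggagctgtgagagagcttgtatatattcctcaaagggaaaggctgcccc
Vtn chr11:78498870-78499090 (+): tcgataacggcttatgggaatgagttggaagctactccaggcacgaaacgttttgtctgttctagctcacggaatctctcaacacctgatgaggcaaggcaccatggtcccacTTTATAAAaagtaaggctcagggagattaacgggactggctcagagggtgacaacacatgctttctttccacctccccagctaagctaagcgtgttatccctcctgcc
None of these letters were in the Cldn5 window. Slco1a4 had 1 match each to the ETS and SOX letters, Rgs5 had 1 to the GATA letters, and Vtn had 2 overlapping matches to the TATA letters, 1 on each strand. Among the windows not printed, which overlap the annotated RefSeq gene, Flt1 had 2 ETS matches and 1 TATA match, Tek had 1 SOX match, and Kdr had none. Pecam1 and Cdh5 were not searched, nor was Pdgfrb.

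None of the 10 genes differed between KO and WT mice beyond the spread between mice. At an unadjusted p below 0.05 there were 0 of 10 members in edgeR, against 6.29% of all genes tested, and at the adjusted threshold there were 0 by edgeR, DESeq2 and limma-voom. The ranges of KO and WT mice overlapped for all 10, while 0.895% of all genes had ranges that did not overlap. The log2 fold changes (KO over WT) ran from -0.20 for Kdr to 0.10 for Vtn, with 6 below 0 and 4 above, where 49.3% of all genes tested lay below 0. Their median was -0.03, against 0.0016 over all genes tested. For all 10 members the 95% interval held no change as large as 1.5-fold, which was also so for 90.1% of all genes.

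**Figure D1:**
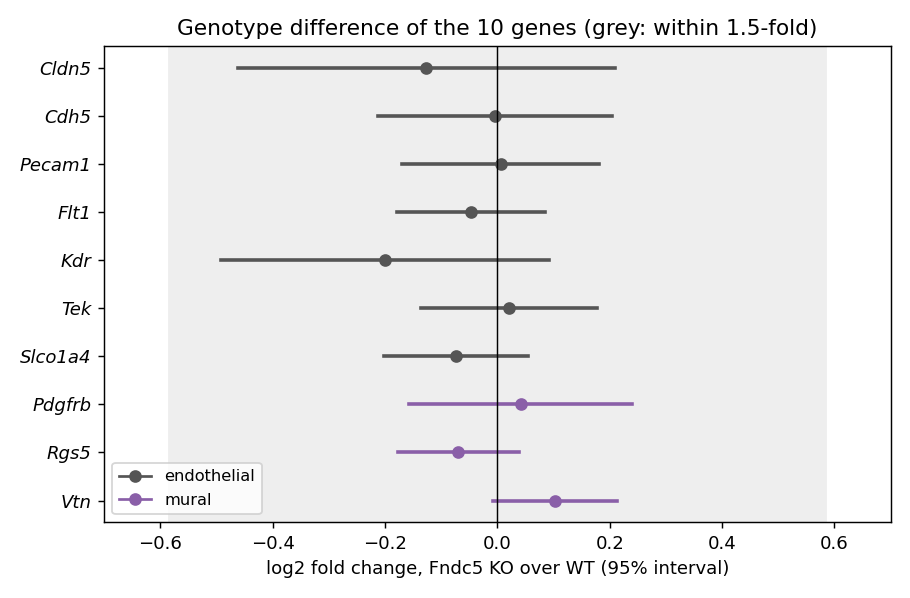
Log2 fold change of each gene (KO over WT) with its 95% interval from edgeR, for endothelial (grey) and mural (purple) genes, n = 5 mice per genotype. Every interval includes 0 and lies inside the grey band of 1.5-fold, and those of Cldn5 and Kdr are the widest.

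Among the junction genes, Cldn5 encodes claudin-5, the main tight-junction claudin of the blood-brain barrier. It is a single-exon gene on chromosome 16 (GRCm38, 18776847 to 18778262, plus strand). Cldn5 was at 11.7, 18.6, 11.7, 20.3 and 13.01 CPM in KO mice 1 to 5, and at 11.5, 19.7, 18.01, 15.2 and 17.7 CPM in WT mice 1 to 5. In KO, mice 2 and 4 were high and the other 3 low, in WT mouse 1 alone was low, and the genotypes overlapped over most of their range. Its log2 fold change was -0.13 (SE 0.16, 95% interval -0.46 to 0.21, edgeR adjusted p 0.903). The values moved with single mice, to -0.26 without KO mouse 4 and -0.05 without KO mouse 3.

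Cdh5 encodes VE-cadherin, the adherens junction cadherin of endothelium (chromosome 8, 104101625 to 104144511, plus strand). Cdh5 was at 13.9, 16.0, 11.03, 13.3 and 12.7 CPM in KO mice and at 11.6, 14.2, 11.9, 14.0 and 15.6 CPM in WT mice. The mean was 13.4 CPM in KO and 13.5 CPM in WT mice, and KO over WT was -0.00 (log2, SE 0.098, 95% interval -0.21 to 0.20). Pecam1 encodes CD31, an adhesion molecule of endothelial contacts that is also found on platelets and leukocytes (chromosome 11, 106654217 to 106750628, minus strand). It was at 14.8, 17.2, 13.2, 16.5 and 14.9 CPM in KO mice and at 12.6, 16.4, 15.5, 15.6 and 16.2 CPM in WT mice. WT mouse 1 lay below the other WT mice, and KO over WT was 0.01 (log2, SE 0.083, 95% interval -0.17 to 0.18). For both genes the mice of each genotype covered nearly the same range.

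The receptor genes comprise Flt1 and Kdr, which encode VEGF receptors 1 and 2, and Tek, which encodes the angiopoietin receptor Tie2. Flt1 lies on chromosome 5 (147561604 to 147726011, minus strand) and also gives a soluble form that binds VEGF without signalling, which a count per gene does not separate. It was at 69.5, 79.7, 63.6, 73.5 and 70.2 CPM in KO mice and at 68.4, 82.2, 73.4, 67.1 and 77.5 CPM in WT mice. The ranges were nearly the same, with a KO over WT value of -0.05 (log2, SE 0.062, 95% interval -0.18 to 0.08), which was -0.01 without WT mouse 2 and -0.09 without KO mouse 2.

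Kdr, the main signalling receptor for VEGF-A in endothelium, lies on the same chromosome (75932827 to 75978458, minus strand). Kdr was at 16.0, 18.6, 12.1, 14.4 and 15.4 CPM in KO mice and at 13.02, 24.1, 17.1, 18.8 and 14.9 CPM in WT mice. WT mouse 2 was the highest of all 10 and the KO mice lay inside or just below the WT range. The log2 fold change of -0.20 (SE 0.14, 95% interval -0.49 to 0.09, edgeR adjusted p 0.817) was the furthest from 0 among the 10, and it was -0.06 without WT mouse 2. Kdr counts were 23.0%, 23.4%, 19.0%, 19.6% and 21.9% of Flt1 counts in KO mice, and 19.0%, 29.4%, 23.2%, 28.1% and 19.2% in WT mice. The KO mice spanned a narrower range of this share, within that of the WT mice but for the lowest KO value.

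Tek lies on chromosome 4, as Fndc5 does, from 94739289 to 94874976 on the plus strand. Tek was at 13.2, 12.4, 11.4, 11.4 and 11.4 CPM in KO mice and at 10.1, 11.6, 12.2, 12.2 and 12.8 CPM in WT mice. The highest level was in a KO mouse and the lowest in a WT mouse, with the other 8 between them (log2 fold change 0.02, SE 0.074, 95% interval -0.14 to 0.18).

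Slco1a4 encodes the organic anion transporter Oatp1a4, which moves steroid conjugates and drugs across the blood-brain barrier of rodents. It lies on chromosome 6 (141805440 to 141856199, minus strand) in a cluster of related genes. Slco1a4 was at 37.5, 34.7, 34.7, 32.4 and 37.4 CPM in KO mice and at 35.3, 41.5, 33.3, 39.0 and 37.3 CPM in WT mice. WT mice 2 and 4 were above every KO mouse and the others overlapped (log2 fold change -0.07, SE 0.060, 95% interval -0.20 to 0.05, and -0.02 after a correction for GC content and transcript length). It was -0.03 without WT mouse 2 and -0.11 without WT mouse 3.

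Reads of related genes could be shared with Slco1a4, so its longest transcript was compared with the transcripts of all other genes in GENCODE M21. Of its 3749 stretches of 75 bases, the read length, 66 were also in another gene, or 1.76%, and the other 9 members had 0. The first such stretch, from coding exons on chromosome 6 between 141825143 and 141826258 (GRCm38, minus strand), was also in Slco1a1.
Slco1a4 and Slco1a1 shared stretch: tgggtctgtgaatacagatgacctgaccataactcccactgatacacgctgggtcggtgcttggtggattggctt
The cluster genes Slco1a1, Slco1a5 and Slco1a6 had at most 0, 4 and 1 counts in a library, so few reads were assigned to them. Gm5724 and Gm6614 also shared stretches with Slco1a4, and their counts were not examined. Of the 10 genes only Cdh5 overlaps the bounds of another gene, the opposite-strand Gm29682, with which it shares 0 exon bases.

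Among the mural genes, Pdgfrb encodes the PDGF receptor beta through which endothelial PDGF-B recruits pericytes (chromosome 18). Pdgfrb was at 26.2, 30.3, 22.3, 31.5 and 26.3 CPM in KO mice and at 22.9, 32.1, 25.5, 27.7 and 24.6 CPM in WT mice. The ranges were nearly the same (log2 fold change 0.04, SE 0.094, 95% interval -0.16 to 0.24). Rgs5, a regulator of G protein signalling that is abundant in pericytes, lies on chromosome 1 (169655501 to 169695813, plus strand). It was at 80.5, 78.4, 67.8, 69.9 and 77.4 CPM in KO mice and at 73.3, 76.6, 78.8, 82.4 and 81.3 CPM in WT mice. KO mice 3 and 4 were below every WT mouse and the other 3 lay within the WT range (log2 fold change -0.07, SE 0.051, 95% interval -0.18 to 0.04, and -0.04 without KO mouse 3).

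Vtn encodes vitronectin, a matrix protein bound by alpha-V integrins, and is made in brain mostly by pericytes (chromosome 11, 78499091 to 78502324, plus strand). Vtn was at 33.2, 36.1, 31.8, 35.5 and 32.8 CPM in KO mice and at 32.2, 31.9, 28.6, 32.9 and 32.4 CPM in WT mice. KO mice 1, 2 and 4 were above every WT mouse, KO mice 3 and 5 were within the WT range, and WT mouse 3 was below all others. The log2 fold change of 0.10 (SE 0.052, 95% interval -0.01 to 0.21) had the smallest p of the 10 (0.0652 unadjusted, edgeR adjusted p 0.789). It was 0.07 without WT mouse 3.

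**Figure D2:**
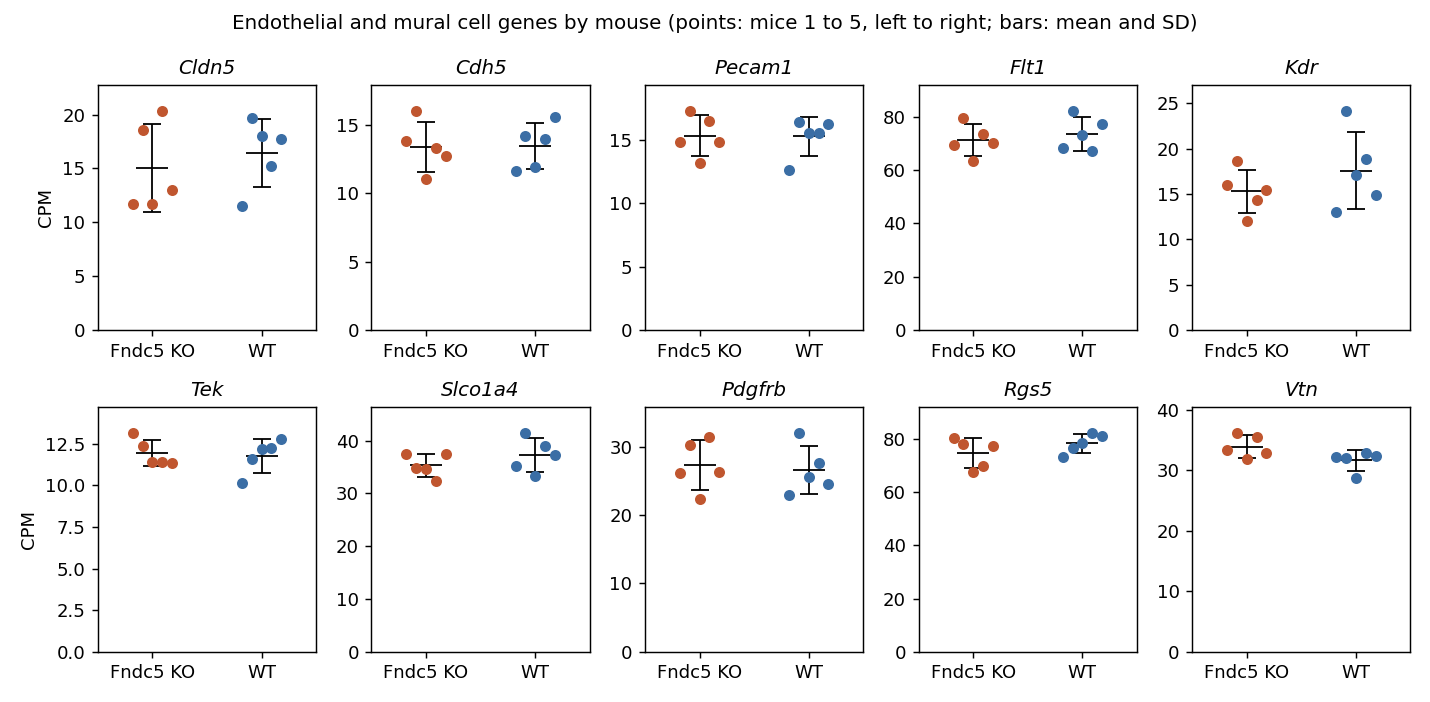
CPM of each gene in each mouse, KO left and WT right, with mice 1 to 5 from left to right in each group and the mean and SD as bars (n = 5 each). KO and WT points overlap in all 10 panels, Cldn5 and Kdr spread most, and Vtn has 3 KO mice above the WT mice.

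Levels can be set against each other only per length. Divided by the merged exon length in kilobases, the KO level was 16.5 ± 1.23 CPM per kb for Rgs5, 16.7 ± 0.912 for Vtn and 10.6 ± 2.88 for Cldn5 (SD, n = 5). The WT levels of these genes were 17.3 ± 0.806, 15.6 ± 0.837 and 11.6 ± 2.24 CPM per kb. Slco1a4, Flt1 and Pdgfrb followed at 5.51 ± 0.336, 5.28 ± 0.436 and 4.99 ± 0.668 CPM per kb in KO mice and 5.81 ± 0.498, 5.46 ± 0.466 and 4.85 ± 0.643 in WT mice, with overlapping ranges. Cdh5, Tek, Pecam1 and Kdr were lowest, at 3.19 ± 0.432, 2.54 ± 0.170, 2.46 ± 0.256 and 1.69 ± 0.265 CPM per kb in KO mice and 3.21 ± 0.396, 2.502 ± 0.217, 2.45 ± 0.247 and 1.95 ± 0.473 in WT mice. Per merged length, Tek and Pecam1 did not differ beyond their spread, and the ranges of Rgs5 and Vtn overlapped in both genotypes. The merged length counts the exons of all annotated forms. A gene with long rare forms, such as Flt1 at 13504 bases, is thus set lower than its main form would be. The longest single transcript had 6895 bases for Flt1, 3441 for Pecam1 (6228 merged) and 4654 for Tek (4712 merged). It had 3823 bases for Slco1a4 (6414 merged) and 5924 for Kdr (9030 merged). How Pecam1 stands to Tek therefore depends on the length used.

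The members differed in how much they varied among mice of a genotype. Cldn5 had a coefficient of variation of 27.1% in KO and 19.3% in WT mice, and Kdr had 15.6% in KO and 24.3% in WT mice. Counting error alone would give 4.61% for Cldn5 and 4.49% for Kdr. Cdh5, Pecam1 and Pdgfrb had 13.5%, 10.4% and 13.4% in KO and 12.3%, 10.1% and 13.3% in WT mice. Flt1, Tek, Slco1a4, Rgs5 and Vtn stayed between 5.46% and 8.25% in KO and between 4.67% and 8.68% in WT mice, near the median of 7.05% over all genes tested.

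Much of this spread was shared. Taking each mouse's log2 CPM relative to its genotype mean, Cldn5 and Pecam1 varied together over the 10 libraries (Pearson r 0.90, Spearman rho 0.94), as did Pecam1 and Cdh5 (r 0.81) and Pecam1 and Flt1 (r 0.80). Of the 21 pairs of endothelial genes, 13 had an r over 0.5, against 10.8% of all pairs of genes tested, with a median of 0.57. After the correction for GC content and transcript length it was 10 of 21, against 10.5% of all pairs, with a median of 0.50. Of the 21 pairs of an endothelial with a mural gene, 8 were over 0.5 before the correction and 9 after it. These correlations are descriptions, since all pairs share the same libraries. Pdgfrb had r of 0.83 with Kdr, 0.82 with Pecam1, 0.81 with Cldn5, 0.73 with Flt1 and 0.61 with Cdh5, but 0.24 with Slco1a4 and 0.20 with Tek. With the mural genes it had 0.53 (Vtn) and 0.23 (Rgs5). Rgs5 was closest to Tek (r 0.75), and Slco1a4 stood apart from Cldn5 (r -0.17), Pecam1 (r 0.11) and Flt1 (r 0.14).

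The low end of this shared variation was KO mouse 3 and WT mouse 1. The mean over the 7 endothelial genes, relative to the genotype mean, was -0.00, 0.18, -0.20, 0.05 and -0.04 (log2) in KO mice 1 to 5 and -0.25, 0.18, -0.01, 0.02 and 0.06 in WT mice. The mean over the mural genes was 0.01, 0.11, -0.17, 0.06 and -0.01 in KO mice and -0.09, 0.09, -0.06, 0.07 and -0.00 in WT mice. Mouse 2 was the highest of each genotype in both. KO mouse 3 and WT mouse 1 were picked for their low summed level of these same endothelial genes. Leaving out the low end of the same values can by itself lower r. A fall in r therefore cannot show how much of the shared variation rests on these libraries. Without them the median r of endothelial pairs was 0.23, and 6 of 21 pairs were over 0.5, against 14.1% of all pairs. Against the mean of the other endothelial genes, r then stayed high for Pecam1 (0.81, and 0.95 with all libraries), Flt1 (0.79 and 0.82) and Pdgfrb (0.75 and 0.86), and was lower for Cdh5 (0.55 and 0.78), Kdr (0.37 and 0.74), Cldn5 (0.25 and 0.66), Slco1a4 (0.01 and 0.23), Tek (-0.19 and 0.50) and Rgs5 (-0.23 and 0.51). Vtn went the other way, at 0.65 without these libraries and 0.44 with all.

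**Figure D3:**
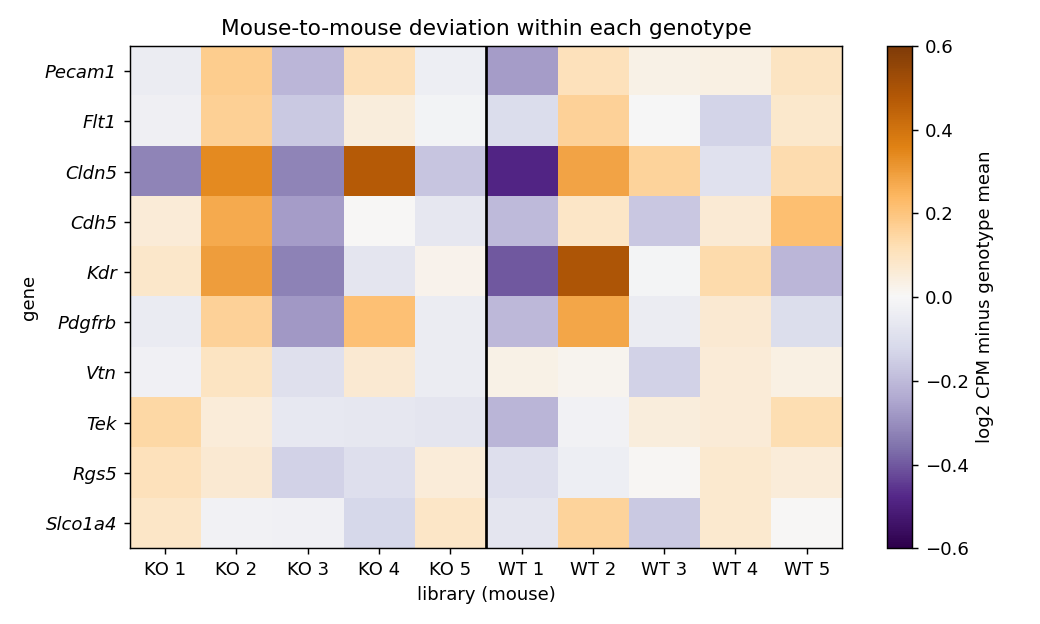
Log2 CPM of each gene in each library minus its genotype mean, KO libraries left of the line and WT libraries right, genes listed from Pecam1 to Slco1a4 in an order set by hand. KO 3 and WT 1 are low and KO 2 and WT 2 high in the 6 rows from Pecam1 to Pdgfrb, while Slco1a4 is highest in WT 2 and lowest in WT 3.

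Slco1a4 and Rgs5 have the transcripts of lowest GC content among the 10 genes. Their r with Cldn5 was -0.17 and 0.07 over the 10 libraries. After the correction for GC content and transcript length it was -0.45 and -0.28. Without KO mouse 3 and WT mouse 1 it was -0.50 and -0.76. Any part of GC content in their patterns was not tested. The GC content of the longest transcript was 40.3% for Slco1a4, 41.1% for Rgs5 and 47.1% for Tek, and between 49.4% (Kdr) and 60.5% (Cldn5) for the other 7. Against the mean of the other endothelial genes, r was 0.23 for Slco1a4 and 0.51 for Rgs5, and -0.12 and 0.10 once each library's trend with GC content and transcript length was removed. Tek was at 0.50 and at 0.34 after the correction. Vtn, at 55.3% GC, was at 0.44 and at 0.55 after the correction. For Pecam1, Flt1, Cdh5, Cldn5, Kdr and Pdgfrb r lay between 0.66 and 0.95 both before and after the correction.

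**Figure D4:**
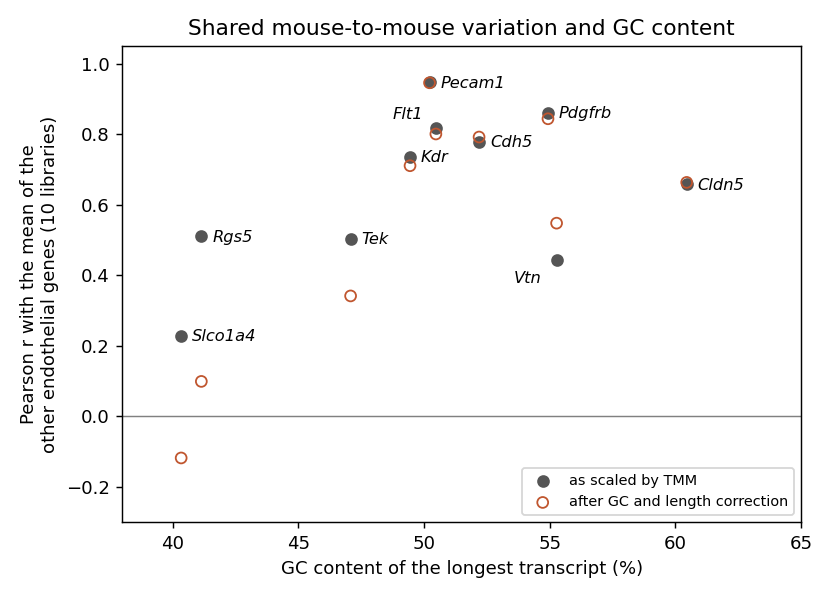
Pearson r of each gene's mouse-to-mouse deviations with the mean of the other endothelial genes over 10 libraries, against the GC content of its longest transcript, before (filled) and after (open) removal of the trend with GC content and length. Slco1a4 and Rgs5 have the lowest GC content, and their open points are the lowest.

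Outside the 10 genes, the closest patterns to the endothelial mean among 13545 genes of at least 1 CPM were those of Trip4 (r 0.96), Map2k6 (0.95), Gna13 (0.95), Gbp7 (0.95) and Wdr19 (0.95), and 41 genes had r of 0.9 or more over the 10 libraries. The closest to the mural mean were Slc9a8 (0.98), Ets1 (0.97), Btbd3 (0.96), Nucb2 (0.96) and Map2k6 (0.96), and 34 genes reached 0.9. Of lists of markers for other cells, the means over 2 ependyma and 12 meningeal fibroblast genes were closest to the endothelial mean (r 0.77 and 0.73, rho 0.77 and 0.78). The means over 10 astrocyte (r 0.58, rho 0.52), 10 granule neuron (r 0.52, rho 0.25) and 10 microglia genes (r 0.47, rho 0.48) followed. Their summed levels overlapped between genotypes, at 66.4 to 81.3 CPM in KO and 66.0 to 80.3 CPM in WT mice for meningeal genes and 5127 to 6383 CPM in KO and 5426 to 6227 CPM in WT mice for astrocytes. For choroid plexus, 5 of 10 markers passed the low-count filter, with sums of 34.2 to 42.6 CPM in KO and 33.3 to 39.8 CPM in WT mice. The rows of the haemoglobin genes Hba-a1, Hba-a2, Hbb-bs and Hbb-bt held 0 counts in every library, so the blood left in the vessels could not be gauged from them. The part of these cells in the vascular values was not tested.

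Beyond the members, 127 of 130 other vascular genes in 8 lists were tested, and 0 passed the adjusted threshold in edgeR, DESeq2 or limma-voom. At an unadjusted p below 0.05 there were 12, or 9.45%, against 6.29% of all genes, with 4 higher and 8 lower in KO mice against 2.54% and 3.75% of all genes. The median log2 fold change over the 127 was -0.01. The 3 genes with the smallest p of each list are named first, so they are the extremes of their lists, and further members of known role were added after their values were seen.

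Endothelial junction and surface genes had 13 of 22 values above 0 and a median of 0.02. Icam2, an adhesion ligand of endothelium, was at 1.07 ± 0.209 CPM in KO and 0.822 ± 0.135 CPM in WT mice (log2 fold change 0.38, SE 0.19). Pltp, a phospholipid transfer protein, had 0.14 (SE 0.075, and 0.06 without KO mouse 1), and Esam, an endothelial adhesion molecule, had -0.12 (SE 0.088, and -0.07 without KO mouse 3). The tight-junction genes Ocln and Tjp1 were at 0.05 (SE 0.064) and -0.03 (SE 0.046), and 0 of the 22 had an unadjusted p below 0.05.

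Ligands and receptors of the VEGF and angiopoietin families had 6 of 13 values above 0 (median -0.02). Of the 13, 1 had an unadjusted p below 0.05, or 7.69%, against 6.29% of all genes. Vegfb was at 33.7 ± 1.54 CPM in KO and 31.4 ± 1.49 CPM in WT mice (log2 fold change 0.10, SE 0.048, edgeR adjusted p 0.788). The VEGF co-receptor Nrp1 had -0.11 (SE 0.054) and the orphan receptor Tie1 had 0.11 (SE 0.092, 0.21 without WT mouse 5 and 0.07 without WT mouse 3). Vegfa, the main ligand of both Flt1 and Kdr, was at 63.5 CPM in KO and 63.1 CPM in WT mice (log2 fold change 0.01, SE 0.072), and Angpt1, the ligand of Tek, had 0.06 (SE 0.11).

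Transporters and receptors of the barrier had 7 of 18 values above 0 (median -0.02). An unadjusted p below 0.05 was found for 2 of 18, or 11.1%, against 6.29% of all genes. The transferrin receptor Tfrc, which neurons also express, was lower in every KO mouse than in every WT mouse, at 70.6 ± 3.97 CPM in KO and 83.8 ± 7.76 CPM in WT mice (log2 fold change -0.25, SE 0.058, edgeR adjusted p 0.788). Such a lack of overlap, in either direction, was found for 0.895% of all genes tested. The reelin receptor Lrp8 had -0.09 (SE 0.040) and the monocarboxylate transporter Slc16a1 -0.10 (SE 0.064, and -0.05 without WT mouse 3). Among transporters that, like Slco1a4, are typical of the barrier, Abcb1a was at -0.02 (SE 0.060) and Abcg2 at -0.01 (SE 0.065). Slc2a1 was at 0.05 (SE 0.11) and Mfsd2a at -0.01 (SE 0.14). Further from 0 were Slco1c1 at -0.07 (SE 0.066), Slc7a1 at -0.07 (SE 0.051) and Slc7a5 at 0.09 (SE 0.076).

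Wnt signalling genes of the barrier had 7 of 17 values above 0 (median -0.01) and 0 with an unadjusted p below 0.05. Tspan12, a co-activator of the norrin receptor, had -0.13 (SE 0.079), the Wnt inhibitor Nkd1 -0.13 (SE 0.11, -0.07 without WT mouse 2 and -0.21 without KO mouse 4) and the ligand Ndp -0.12 (SE 0.096, and -0.03 without WT mouse 2). Endothelial transcription factors had 5 of 17 values above 0 (median -0.05). Of these 17, 3, or 17.6%, had an unadjusted p below 0.05, against 6.29% of all genes. These 3 were all lower in KO mice. Fli1, an ETS factor also expressed by microglia, was at 3.05, 3.68, 3.53, 4.04 and 3.50 CPM in KO mice and at 3.92, 5.41, 4.05, 4.45 and 4.31 CPM in WT mice. KO mouse 4 was above WT mouse 1, and the other KO mice were below every WT mouse (log2 fold change -0.31, SE 0.11, edgeR adjusted p 0.788). Klf4, a flow-responsive factor, was at 3.81 ± 0.373 CPM in KO and 4.69 ± 0.581 CPM in WT mice (-0.30, SE 0.11). Bcl6b had -0.46 (SE 0.18) at 1.16 CPM in KO and 1.57 CPM in WT mice. Of the other factors, Erg and Sox18 were at -0.02 (SE 0.10) and -0.03 (SE 0.12). Foxf2 was at -0.20 (SE 0.12) and Tal1 at 0.23 (SE 0.19).

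The list of PDGF, pericyte and smooth muscle genes had a median of 0.02. An unadjusted p below 0.05 was found for 6 of 22 tested genes, or 27.3%, against 6.29% of all genes. Of these 6, 3 were higher and 3 lower in KO mice. Tbx18, a transcription factor of mural cells, was at 1.49, 1.31, 1.18, 1.28 and 1.501 CPM in KO mice and at 0.912, 1.048, 0.728, 0.775 and 1.04 CPM in WT mice. Every KO mouse was above every WT mouse (log2 fold change 0.60, SE 0.17, edgeR adjusted p 0.788). Ranges did not overlap, in either direction, for 0.895% of all genes tested. Acta2, the smooth muscle actin of arterioles, was at 3.99 ± 0.482 CPM in KO and 3.23 ± 0.506 CPM in WT mice (0.32, SE 0.12), with overlap. Rgs4, a relative of Rgs5 that neurons express strongly, had -0.13 (SE 0.052). The other 3 genes of the 6 were the pericyte aminopeptidase gene Anpep at -0.35 (SE 0.15), the smooth muscle gene Lmod1 at -0.64 (SE 0.28, at 0.342 CPM in KO and 0.539 CPM in WT mice) and the integrin gene Itga7 at 0.20 (SE 0.081). Tagln, a smooth muscle actin-binding gene, was at 0.30 (SE 0.17). The pericyte channel subunits Kcnj8 and Abcc9 were at -0.00 (SE 0.13) and 0.02 (SE 0.084), the pericyte ATPase gene Atp13a5 at -0.01 (SE 0.078), and the ligand Pdgfb at 0.08 (SE 0.078). The smooth muscle myosin Myh11 was at -0.01 (SE 0.10).

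Receptors and partners of vitronectin had 2 of 8 tested values above 0 (median -0.04) and 0 with an unadjusted p below 0.05. Itgav, the alpha-V subunit that binds vitronectin, was at 36.5 ± 3.79 CPM in KO and 37.8 ± 2.26 CPM in WT mice (log2 fold change -0.05, SE 0.066). Itgb1 had -0.03 (SE 0.045), and the plasminogen activator gene Plat had 0.06 (SE 0.050, 0.04 without WT mouse 5 and 0.09 without WT mouse 3). Basement membrane genes had 9 of 14 values above 0 (median 0.04) and 0 with an unadjusted p below 0.05. The laminin chains Lamb2 and Lama5 had 0.10 (SE 0.051) and 0.18 (SE 0.090, and 0.10 without KO mouse 1), and Agrn, which encodes agrin, had 0.05 (SE 0.032). The collagen IV chains Col4a1 and Col4a2 were at -0.05 (SE 0.040) and -0.06 (SE 0.046).

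**Figure D5:**
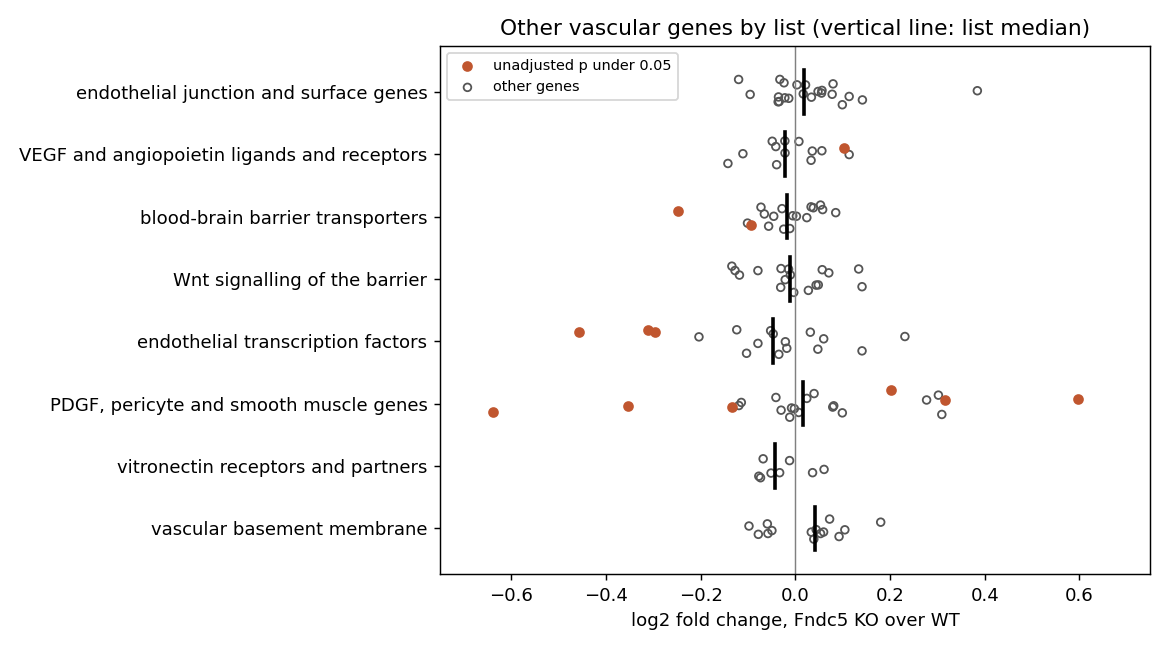
Log2 fold change (KO over WT) of the other vascular genes in 8 lists, with 1 point per gene, the list median as a vertical line, and filled points for an unadjusted edgeR p below 0.05. Medians lie between -0.05 and 0.04, and the filled points of the mural list lie on both sides of 0.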

How the data were processed

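RNA of the dentate gyrus of 10 mice was sequenced from stranded poly(A) libraries of 500 ng RNA as single reads of 75 bases, per the labels' protocols. The authors deposited raw counts per gene symbol, with no normalization. STAR 2.5.1b, Cufflinks 2.2.1 and build mm10 are named in the submitters' processing notes, with no role. The sources used here do not give the strand setting or the treatment of multi-mapping reads.

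Groups came from the sample titles. Genes were filtered with filterByExpr, scaled by TMM and compared with edgeR 4.0.16 (glmQLFit and glmQLFTest, genotype as the only term, R 4.3.3), adjusted by Benjamini-Hochberg over 14867 genes at 0.05. SEs came from the F statistic. CPM used TMM-scaled totals, and log2 CPM a prior count of 2. No 2 libraries of a genotype matched within counting noise (smallest ratio of chi-square to its degrees of freedom, 4.64). The fit was tested on simulated data. Exon lengths, GC content and coordinates are from GENCODE M21 (GRCm38), and 24553 rows matched. The labels do not say whether mice of a genotype were littermates.

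Alternatives were DESeq2 1.42.0, upper-quartile scaling, other low-count filters, limma-voom (limma 3.58.1), a replicate block and each library left out. A spline correction for GC content and length (4 degrees of freedom each) and leaving out KO mouse 3 and WT mouse 1 were added after seeing the data. The members and lists were chosen with earlier results of these data known. Genes named were the members, Fndc5, the 3 of each vascular list with the smallest p, and the 5 most alike in pattern to each cell type's mean. Other list genes were chosen after their values were seen.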

Additional observations from a re-analysis of the deposited data

Results flagged for a closer look

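A library standing far from its genotype was looked for in 92 sets of 5 values, and 10 were found where chance gives about 4.6. The sets come from the same 10 libraries and are not independent, so these 2 numbers cannot show an excess. Among the members, Pecam1 was at 12.6 CPM in WT mouse 1 (the other WT mice 15.5 to 16.4 CPM) and Vtn at 28.6 CPM in WT mouse 3 (the others 31.9 to 32.9 CPM). Among the other vascular genes, Pltp was at 43.1 CPM in KO mouse 1 (the others 32.2 to 35.2 CPM) and Tie1 at 9.55 CPM in WT mouse 5 (the others 6.75 to 7.34 CPM). KO mouse 3 was far from its genotype for 3 genes, with Tspan12 at 9.52 CPM (the others 10.8 to 11.2 CPM), Ndp at 6.76 CPM (the others 6.01 to 6.20 CPM) and Itgb1 at 40.3 CPM (the others 45.3 to 46.6 CPM). WT mouse 2 was high for Ndp, at 8.52 CPM (the others 5.94 to 6.69 CPM), and for Itgav, at 41.8 CPM (the others 36.3 to 37.4 CPM). Alas2, the only red blood cell marker that passed the filter, was at 1.116 CPM in KO mouse 5 (the others 1.54 to 1.62 CPM).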

How the results depend on the processing

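The counts of members and of other vascular genes past the threshold were 0 in all 18 alternatives, of which the GC and length correction and the fit without KO mouse 3 and WT mouse 1 were chosen after seeing the data. At an unadjusted p below 0.05 there was 1 member in 4 of them and 0 in the others. It was Vtn (KO over WT) with the replicate block (log2 0.10, edgeR p 0.0392), without KO mouse 3 (0.13, p 0.0335) and without KO mouse 3 and WT mouse 1 (0.13, p 0.0358), and Kdr without WT mouse 1 (-0.29, p 0.0344). Of all genes tested, 1493 of 14867 had an unadjusted p below 0.05 with the replicate block, against 935 of 14867 in the main fit. Without KO mouse 3 it was 648 of 14933, and without WT mouse 1 it was 1057 of 14926. Without both of these mice it was 743 of 14869. The lowest adjusted p of a member was 0.467, for Vtn with the replicate block. All genes past the threshold numbered 1, and 3 with DESeq2, 8 with the replicate block, 2 without KO mouse 3 and WT mouse 1, and 1 to 3 with single libraries left out. The titles do not say that the numbers pair mice, so the replicate block was run only as an alternative. The sample descriptions list WT and KO libraries in turn, with mice of 1 number next to each other. Deviations of KO and WT mice with 1 number had r of 0.209, 0.204, 0.108, 0.00901 and 0.0282. Of the 10 libraries, 6 correlated best with their own number, and whether the numbers pair the mice was not settled. The median over the members ranged from -0.07 (without KO mouse 2) to 0.01 (without KO mouse 3) with single libraries left out. Members whose sign turned lay near 0. Cdh5 was at 0.0060 with upper-quartile scaling, 0.0020 with limma-voom and 0.0140 without KO mouse 3 and WT mouse 1, and Pecam1 was at -0.0014 after GC and length correction and -0.0048 without those mice, where Tek was at -0.0125. With single libraries left out Cdh5 ranged from -0.0772 to 0.0611, Pecam1 from -0.0563 to 0.0572, Tek from -0.0290 to 0.0515, Pdgfrb from -0.0158 to 0.117, Itgav from -0.10 to 0.0026 and Itgb1 from -0.0478 to 0.0037. The cause of these changes was not tested. Cldn5, Flt1, Kdr, Slco1a4, Rgs5 and Vtn kept their sign in all 18.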
